A study of Mus musculus with 50 samples.

Results

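The 9 genes described here encode receptors of the Dectin-2 and Mincle type and their relatives, all members of the C-type lectin superfamily. They were chosen by gene symbol from the 53700 genes counted: Clec4e (Mincle), Clec4d (MCL, also called Dectin-3), Clec4n (Dectin-2), Clec5a (MDL-1), Clec4a2 (DCIR), its relatives Clec4a1 and Clec4a3, Clec12a (MICL) and Clec2d (Clr-b). All 9 symbols were found. Of these, 7 were among the 16696 genes tested, which had to reach a level of 1 CPM (counts scaled to an equal library total) in more than 2 mice. Clec4d and Clec12a did not, Clec4e did so only through mice injected with LPS, and Clec4n reached it in 9 mice at P9 and 1 adult mouse. A gene that passed only through the mice in which it is high had to differ, so Clec4e after LPS and Clec4n with age are described but left out of the counts of members called. Dectin-1 is encoded by Clec7a, which is not among the 9; its values are given with the other C-type lectin receptors.

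RNA was sequenced from microglia sorted from the hippocampus of 50 male C57BL/6J mice as live CD11b-positive cells with intermediate CD45. Early-life stress (ELS) consisted of limited bedding and nesting material from postnatal day (P) 2 to P9, and control litters (CTR) had standard material. At P9, untreated CTR mice (n = 12) and ELS mice (n = 13) were compared. At P200, CTR and ELS mice had received an intraperitoneal injection of PBS (CTR-PBS, n = 7; ELS-PBS, n = 6) or of 1 mg/kg lipopolysaccharide (LPS; CTR-LPS, n = 7; ELS-LPS, n = 5), 3 h before sacrifice. The label of a mouse joins a pair of numbers by a point; the number before the point is treated as the nest and the number after it as the mouse. The 12 P9-CTR mice came from 5 nests and the 13 P9-ELS mice from 4, so that mice of a nest are not independent of each other. Each P200 group came from 5 nests, which its PBS and LPS mice had in common within CTR and within ELS. Myelin was removed by Percoll gradient only from adult tissue, so age and this step cannot be told apart.

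Library totals ranged from 5152838 to 42231258 counts, with 12482 to 21100 genes detected. Mice 3 and 2 of nest 19 in P9-ELS and mouse 1 of nest 1 in CTR-PBS had the fewest genes. Some of the ranges, means and correlations of members that they set are also given without them. All other values, the marker levels among them, include these mice. All 8 microglial markers were counted in every group, with a summed level of 35700 to 63200 CPM at P9 and 63500 to 81100 CPM at P200. Of 8 neutrophil markers, Ly6g and Retnlg were at 0 in every mouse, Cxcr2 was counted in all 25 P9 mice at 9.08 to 30.9 CPM, and no other reached more than 2.45 CPM at P9. In bulk samples of this kind, fewer cells of a type and less RNA per cell cannot be told apart.

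C-type lectin receptors are surface proteins of myeloid cells that recognise carbohydrates and other ligands of microbes and of damaged cells. Mincle, MCL and Dectin-2 pair with the adaptor FcR gamma (Fcer1g) and MDL-1 pairs with DAP12 (Tyrobp); from these adaptors the signal runs through the kinase Syk to the CARD9-BCL10-MALT1 complex and to cytokine genes. DCIR and MICL carry inhibitory motifs that recruit phosphatases, and Clr-b is a ligand of the inhibitory natural killer cell receptor NKR-P1B. Mincle is known to be induced in macrophages by Toll-like receptor ligands such as LPS.

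All 9 genes lie on mouse chromosome 6 (GRCm39, GENCODE annotation). The Clec4 members form a cluster of 371 kb (chr6:122896122-123266829) in the order Clec4a1, Clec4a3, Clec4a2, Clec4n, Clec4d and Clec4e, of which Clec4e alone is on the minus strand. Clec2d (chr6:129157577-129163497) and Clec12a (chr6:129319654-129342266) lie farther along on the plus strand, and Clec5a (chr6:40551234-40562773) lies apart on the minus strand. Of the 50-base stretches in the reference transcript, 9.04% in Clec4a2 also occurred in transcripts of other genes, Clec4a4 and Clec4b1 among them. For Clec2d this share was 1.97%, with Clec2g and Clec2i, and for Clec4n it was 0.922%; no such stretch was found in the other 6 genes. Values of Clec4a2, Clec2d and Clec4n are uncertain to that extent, since reads in shared stretches may not have been assigned. Exons of Clec5a overlapped those of Or9a4, on the opposite strand, by 44 bases, and exons of Clec4a2 overlapped those of Gm67020 by 16 bases; whether the counting used strand is not given in the sources used here.

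The 250 bases before the annotated start are shown for the genes whose level after LPS is described first, Clec4e (chr6:123266830-123267079, minus strand) and Clec2d (chr6:129157327-129157576, plus strand), and for the most abundant member, Clec5a (chr6:40562774-40563023, minus strand). Each is written 5′ to 3′ on the strand of the gene, and capitals mark matches to the motifs searched on both strands.
Clec4e: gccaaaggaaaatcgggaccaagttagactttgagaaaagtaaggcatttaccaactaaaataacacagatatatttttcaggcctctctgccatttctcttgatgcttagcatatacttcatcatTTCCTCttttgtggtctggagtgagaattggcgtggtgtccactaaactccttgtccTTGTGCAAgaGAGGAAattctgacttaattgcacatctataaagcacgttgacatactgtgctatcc
Clec2d: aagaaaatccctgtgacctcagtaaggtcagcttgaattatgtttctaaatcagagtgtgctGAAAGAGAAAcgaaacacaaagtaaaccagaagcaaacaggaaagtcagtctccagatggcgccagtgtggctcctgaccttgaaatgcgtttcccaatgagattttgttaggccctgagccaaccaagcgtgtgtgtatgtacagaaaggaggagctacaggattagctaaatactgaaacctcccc
Clec5a: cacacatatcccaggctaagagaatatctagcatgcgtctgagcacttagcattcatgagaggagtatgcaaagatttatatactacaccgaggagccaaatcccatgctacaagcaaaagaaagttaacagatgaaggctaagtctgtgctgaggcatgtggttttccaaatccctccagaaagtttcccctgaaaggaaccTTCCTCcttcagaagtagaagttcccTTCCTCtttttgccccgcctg
The capitals in Clec4e are a TTGCNNAA match 67 to 60 bases before the start, the C/EBP-type pattern, and GAGGAA, the pattern of PU.1, at 124 to 119 and 57 to 52 bases. In Clec2d they are a match to the pattern of interferon regulatory factors (GAAA repeated after a gap of 2 bases) at 188 to 179 bases. In Clec5a they are GAGGAA matches at 47 to 42 and 21 to 16 bases. GAGGAA was found before 7 of the 9 genes, Clec12a and Clec2d being the exceptions, against 22.9% of 21770 protein-coding promoters of the same length. The interferon regulatory factor pattern was found before Clec2d and Clec4d, against 3.3% of promoters, TTGCNNAA before Clec4e against 9.3%, and TTCNNNGAA before Clec4n against 7.7%. Matches to the NF-kappaB pattern (7.6% of promoters) and to TGANTCA (6.2%) were in none of the 9 windows. Starts are those of a single reference transcript per gene. The windows of Clec4a1, Clec4a2 and Clec12a lay inside the gene, most of that of Clec4a3 did, and that of Clec4d reached a few bases into it. Exon bases made up 142, 59, 120, 145 and 2 of the 250 in Clec4d, Clec4a1, Clec4a3, Clec12a and Clec2d. A match describes letters in the window and not a bound site.

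**Figure D1:**
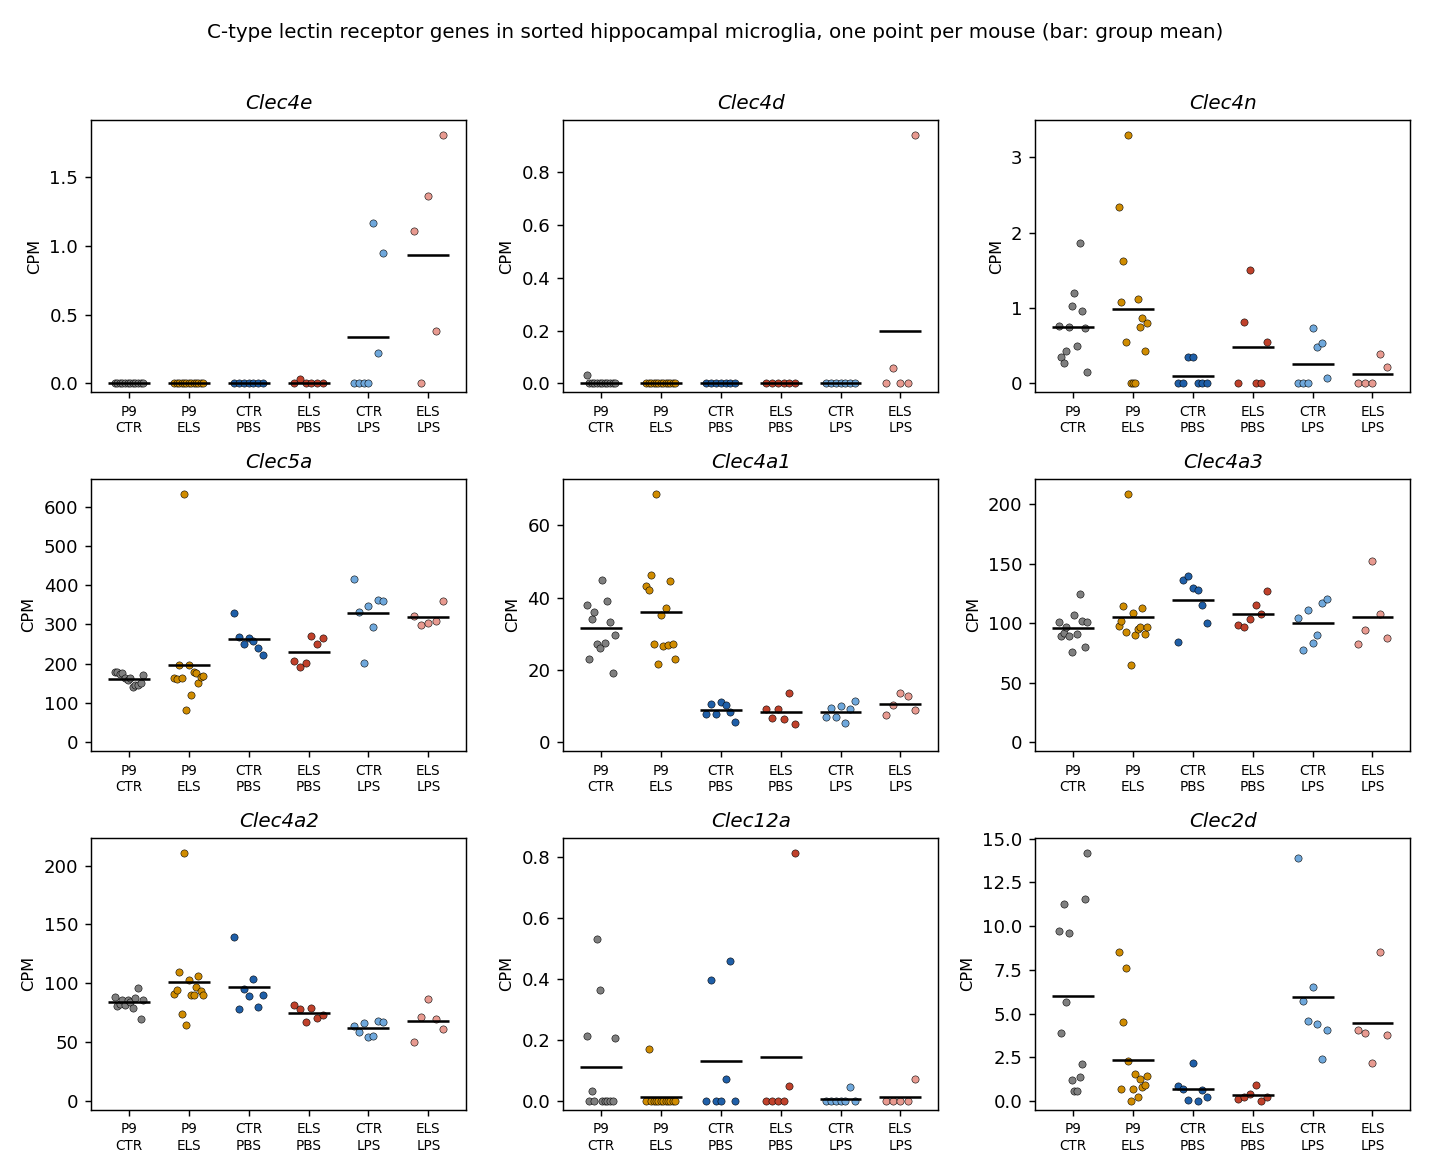
Level of each of the 9 genes in CPM (vertical axes, linear, separate scale per gene) in every mouse of the 6 groups; each point is a mouse and the bar is the group mean. Clec2d is low in the PBS groups and higher after LPS and in part of the P9-CTR mice, Clec4a1 is higher at P9 than in all P200 groups, and Clec4e has counts in 8 mice, of which 7 had received LPS.

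The 9 genes spanned a wide range of levels. Per kilobase of exon, Clec5a had the highest level in every group, with group means from 36.4 CPM per kb at P9-CTR to 74.1 CPM per kb in CTR-LPS. Clec4a2 and Clec4a3 followed, at 28.7 and 28.1 CPM per kb in P9-CTR and 33 and 35 CPM per kb in CTR-PBS. Clec4a1 was at 11.8 CPM per kb in P9-CTR and at 3.31 CPM per kb in CTR-PBS. Clec2d was at 4.93 CPM per kb in P9-CTR, 0.549 CPM per kb in CTR-PBS and 4.9 CPM per kb in CTR-LPS. Clec4n stayed below 1 CPM per kb in all group means, and Clec4e, Clec4d and Clec12a were counted in 8, 3 and 13 mice.

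The first question was how the receptors responded to LPS in adult microglia. Clec2d was higher after LPS in both CTR and ELS mice, and Clec4e was counted almost only in LPS mice. Apart from Clec4e, 1 of 6 members tested was called higher and 0 lower in either condition (edgeR quasi-likelihood test, Benjamini-Hochberg adjusted p below 0.05 and absolute log2 fold change above 1). Among all genes, 6.02% were called higher and 3.6% lower in CTR mice, and 4.69% higher and 3.17% lower in ELS mice. The median log2 fold change of these 6 members was 0.14 in CTR and 0.15 in ELS mice, against 0.00 and -0.04 over all genes tested.

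Clec2d, the ligand of NKR-P1B, was close to the limit of detection in adult microglia after PBS and was counted in every mouse after LPS. In CTR-PBS mice its level had a minimum of 0, a median of 0.641 and a maximum of 2.2 CPM, and in CTR-LPS mice it was 2.43, 4.58 and 13.9 CPM. In ELS-PBS mice these values were 0, 0.233 and 0.925 CPM, and the 5 ELS-LPS mice were at 2.16, 3.76, 3.92, 4.06 and 8.51 CPM. The PBS and LPS groups did not overlap in either condition. Groups without overlap were found for 2 of the 7 members in each condition, against 7.49% of all genes in CTR and 10% in ELS. Mean levels rose from 0.666 ± 0.752 (SD) to 5.95 ± 3.75 CPM in CTR mice, a log2 fold change of 3.18 (SE 0.81, adjusted p = 0.00404). In ELS mice they rose from 0.320 ± 0.327 to 4.48 ± 2.38 CPM, a log2 fold change of 3.79 (SE 0.93, adjusted p = 0.0031). The highest mice of the CTR groups stood apart, mouse 1 of nest 8 after PBS and mouse 2 of nest 1 after LPS; without them the means were 0.411 ± 0.361 and 4.62 ± 1.41 CPM. The difference between the log2 fold changes in ELS and CTR mice was 0.61 (SE 1.15, 95% interval -1.69 to 2.92).

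Clec4e, which encodes the receptor of mycobacterial cord factor and of the nuclear protein SAP130 released by dying cells, was not detected in any of the 25 P9 mice or the 7 CTR-PBS mice. Among the ELS-PBS mice it had 1 count, in mouse 1 of nest 4. After LPS it was counted in 3 of 7 CTR mice, with 24 counts in mouse 3 of nest 8, 13 in mouse 3 of nest 18 and 5 in mouse 2 of nest 15 (1.17, 0.947 and 0.225 CPM). In ELS-LPS mice it was counted in 4 of 5, with 25 counts in the mouse of nest 20, 22 in that of nest 11, 15 in that of nest 2 and 7 in that of nest 17 (1.81, 1.36, 1.11 and 0.384 CPM), and it was at 0 in the mouse of nest 4. Mice with and without counts were thus found in both LPS groups, and 4 of 7 CTR-LPS mice were at 0, as were the CTR-PBS mice. The deepest of the LPS libraries, mouse 3 of nest 1 in CTR-LPS with 42231258 counts, had 0 counts, where 3 counts would have been 0.0786 CPM.

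Over the group, Clec4e was at least 14.8-fold higher in CTR-LPS than in CTR-PBS mice, taking 3 counts over the 7 CTR-PBS mice as the limit that a count of 0 allows (adjusted p = 0.0145, edgeR). Of its 42 counts in CTR-LPS mice, 24 came from mouse 3 of nest 8, and without this mouse the bound was 7.43-fold. In ELS mice, 69 counts after LPS stood against 1 after PBS, a ratio of summed levels of 129 with a 95% counting interval of 22.3 to 5154 (adjusted p = 0.0161). Both p-values are for a gene that entered the test only through the LPS mice. These intervals and limits cover counting error only. The ELS call was lost with DESeq2 (adjusted p = 0.181) and with nest as a block (adjusted p = 0.081). The CTR call was lost with DESeq2 (adjusted p = 0.221), with nest as a block (adjusted p = 0.0845), in the fit of the groups compared alone (adjusted p = 0.0577) and in further settings given in the closing section. With each P200 mouse of the comparison left out in turn, adjusted p was at most 0.0355 in CTR and 0.0369 in ELS mice (edgeR). These fits kept the genes that passed the filter over all 50 mice. Clec4e reached the filter level in 3 LPS mice, where 3 were needed, so without any of these it would not have been tested. The fits therefore cannot show that the call is independent of single mice.

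**Figure D2:**
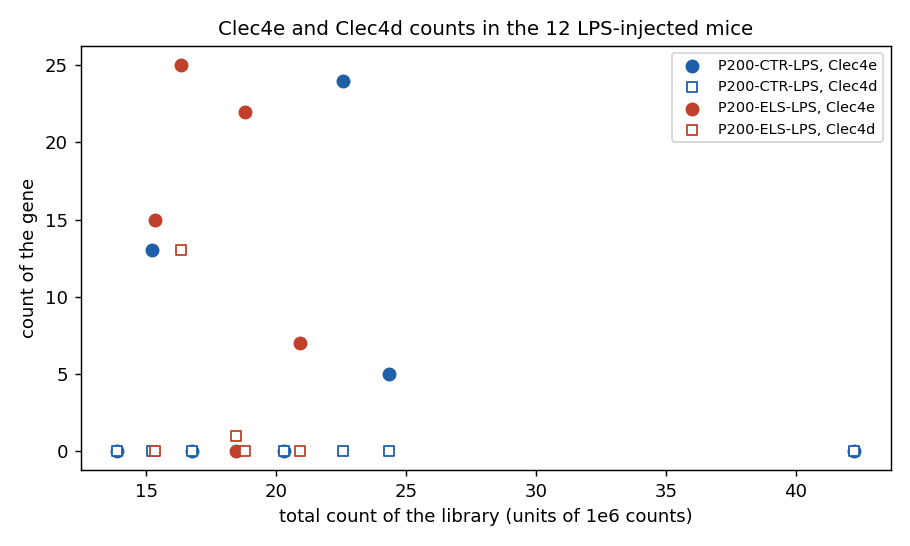
Counts of Clec4e and Clec4d (vertical axis) in the 12 LPS-injected mice against the total count of the library (horizontal axis); each point is a mouse. Libraries with 0 counts of Clec4e are found from 13900212 to 42231258 total counts, and the libraries with 5 to 25 counts lie in the same range of depth.

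Clec4d, whose product forms a complex with Mincle, was counted in 3 of 50 mice. The ELS-LPS mouse of nest 20 had 13 counts (0.939 CPM), and the ELS-LPS mouse of nest 4 and mouse 1 of nest 15 in P9-CTR had 1 count each. Thus 13 of the 14 counts in the ELS-LPS group came from a single mouse, and the gene did not pass the filter for testing. The mouse of nest 20 also had the highest Clec4e level and, among the P200 mice, the highest summed level of the 8 monocyte markers, 24.3 CPM. This sum ranged from 4.39 to 11.11 CPM after LPS in CTR mice, 5.27 to 24.3 CPM after LPS in ELS mice and 0.712 to 18.5 CPM in the PBS groups, with 7 of 8 markers counted in CTR-LPS and 8 of 8 in ELS-LPS mice. Ccr2, Ms4a4c and Plac8 were counted in all LPS mice, with Ccr2 at a median of 3.15 CPM in CTR and 2.73 CPM in ELS mice. Ly6c2 was at 0 in all CTR-LPS mice and was counted in 1 ELS-LPS and 1 ELS-PBS mouse. The mouse of nest 20 also had the highest sum of the 6 dendritic cell markers, 44.5 CPM, of which 44.1 CPM was Zbtb46 and 0.361 CPM the other 5 markers. Of the 8 neutrophil markers, 5 were counted in CTR-LPS and 6 in ELS-LPS mice. Their sum was at most 1.29 CPM in PBS mice and 1.84 CPM in CTR-LPS mice, and it ranged from 0.148 to 9.17 CPM in ELS-LPS mice, with its highest value in the mouse of nest 17. Without the mouse of nest 20, the fitted log2 fold change of Clec4e in ELS mice was 5.86 (SE 1.74, adjusted p = 0.035, edgeR). Without the mouse of nest 17 it was 6.44 (SE 1.76, adjusted p = 0.0208), and both fitted values depend on the prior count. The mouse of nest 20 was among the 3 that carried Clec4e past the filter. Without it the gene would not have been tested, so the former value does not show independence of this mouse. The part of monocytes in the Clec4d counts was not tested.

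Clec5a, the DAP12-coupled receptor, was the most abundant of the 9 before and after LPS. CTR-PBS mice ranged from 222 to 329.6 CPM with a median of 258 CPM, and CTR-LPS mice from 203 to 415.7 CPM with a median of 347 CPM, so that these groups overlapped. ELS-PBS mice ranged from 191.6 to 269 CPM with a median of 228 CPM, and the 5 ELS-LPS mice were at 298.7, 303, 309, 321.5 and 359.7 CPM, all above the ELS-PBS mice. The log2 fold change was 0.33 (SE 0.22, adjusted p = 0.351) in CTR and 0.47 (SE 0.24, adjusted p = 0.234) in ELS mice. Without the 3 mice with the fewest genes it was 0.40 (SE 0.11, adjusted p = 0.00576) and 0.47 (SE 0.12, adjusted p = 0.00257), past the p threshold and below the fold threshold. Of these 3 mice only mouse 1 of nest 1 in CTR-PBS belongs to a group compared here; the spread estimated over all 50 mice includes the other two.

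Clec4a2, which encodes the inhibitory receptor DCIR, was lower after LPS in CTR mice, by less than the fold threshold. CTR-PBS mice had 78.1 to 139.6 CPM (median 90.3) and CTR-LPS mice 54.7 to 68.2 CPM (median 63.4), without overlap. The log2 fold change was -0.64 (SE 0.15, adjusted p = 0.00163), and 6.2% of all genes were lower at adjusted p below 0.05 alone. ELS-PBS mice had 67.3 to 81.8 CPM (median 75.8) and the ELS-LPS mice 50.0, 61.6, 69.5, 71.2 and 86.4 CPM, so that these groups overlapped (log2 fold change -0.15, SE 0.17, adjusted p = 0.653). The difference between both log2 fold changes was 0.49 (SE 0.23, p = 0.0349, adjusted p = 0.799, edgeR), so a different response in ELS mice was not shown. Mouse 1 of nest 1 was the highest of the CTR-PBS group at 139.6 CPM, and without it the CTR-PBS mean was 89.4 ± 9.61 CPM in place of 96.6 ± 20.9 CPM.

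Clec4a1, Clec4a3 and Clec4n were not called after LPS. For Clec4a1 the log2 fold change was -0.05 (95% interval -0.51 to 0.40) in CTR and 0.34 (-0.17 to 0.86) in ELS mice, and for Clec4a3 it was -0.25 (-0.56 to 0.07) and -0.04 (-0.40 to 0.31). For Clec4n, the Dectin-2 gene, the intervals were wide, from -0.97 to 3.72 in CTR and from -4.61 to 0.80 in ELS mice. It was counted in 2 of 7 CTR-PBS, 3 of 6 ELS-PBS, 4 of 7 CTR-LPS and 2 of 5 ELS-LPS mice, at no more than 1.5 CPM. Clec12a, which encodes an inhibitory receptor for uric acid crystals, was counted in 1 mouse of each LPS group with 1 count, and in 3 of 7 CTR-PBS and 2 of 6 ELS-PBS mice with at most 15 counts.

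**Figure D3:**
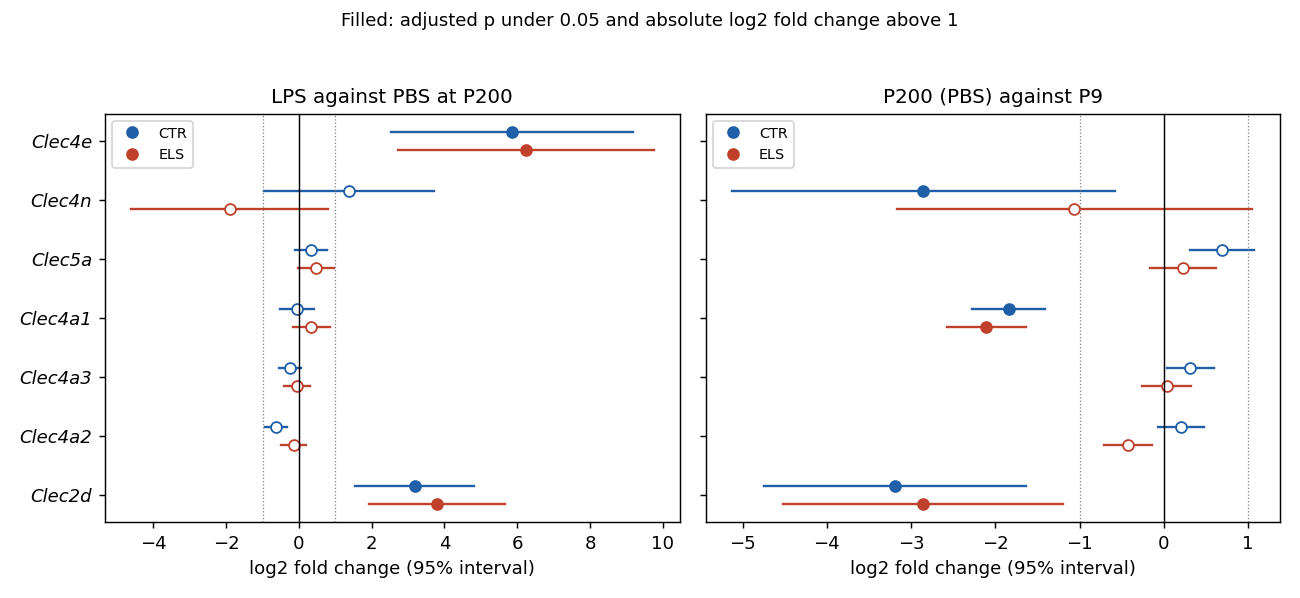
Log2 fold change (horizontal axes) with its 95% interval for the 7 members tested, for LPS against PBS and for P200 after PBS against P9. Clec4e is not drawn in the age panel. Colours separate CTR and ELS mice, and filled symbols passed an adjusted p of 0.05 with an absolute log2 fold change above 1. Clec2d and Clec4e are filled for LPS. Clec4a1 and Clec2d are filled and negative for age in both conditions, and Clec4n is filled in CTR mice.

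The second question was how the receptors differed between P9 and adult microglia (P200 after PBS). Clec4a1 and Clec2d were lower at P200 in both conditions. Apart from Clec4n, which passed the filter only through P9 mice, 2 of 6 members were called lower in each condition, where 18.5% of all genes were called lower in CTR and 17.5% in ELS mice. None was called higher, where 7.98% and 8.68% of all genes were. The median log2 fold change of these 6 members was 0.10 in CTR and -0.20 in ELS mice, against -0.09 and -0.01 over all genes. Among the 6, Clec4e had 0 counts in P9 and CTR-PBS mice and 1 count in ELS-PBS mice, so it could not be called. It entered these medians with log2 fold changes of 0 in CTR and 1.09 in ELS mice, the latter dependent on the prior count.

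Clec4a1 showed the clearest separation by age. Its level ranged from 19.19 to 44.9 CPM in P9-CTR mice (median 31.5) and from 5.67 to 11.13 CPM in CTR-PBS mice (median 8.43). In P9-ELS mice it ranged from 21.7 to 68.7 CPM (median 35.1), or from 22.9 to 46.1 CPM without mice 2 and 3 of nest 19, and in ELS-PBS mice from 4.94 to 13.7 CPM (median 7.92). Between P9 and P200 after PBS, groups without overlap were found for 2854 of the 16696 genes tested in CTR mice. In ELS mice they were found for 1941 genes. Among the members tested, these were Clec4a1 and Clec5a in CTR mice and Clec4a1 alone in ELS mice. For Clec4a1, P9 and P200 mice thus did not overlap in either condition. The level was 3.58-fold lower in CTR mice (log2 fold change -1.84, SE 0.22, adjusted p = 8.53e-10) and 4.31-fold lower in ELS mice (-2.11, SE 0.23, adjusted p = 1.38e-10). It also remained low after LPS, at 8.48 ± 2.11 CPM in CTR and 10.6 ± 2.55 CPM in ELS mice.

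Clec4a1 lies next to Clec4a3 in the cluster, and the levels of this neighbour did not follow it. Mean Clec4a3 levels at P9 were 95.7 CPM in CTR and 105.5 CPM in ELS mice (99.8 CPM without the same 2 mice), and after PBS they were 119 and 108 CPM, with log2 fold changes with age of 0.32 (SE 0.14, adjusted p = 0.0579) and 0.03 (SE 0.14, adjusted p = 0.873). Within a mouse, the log2 ratio of Clec4a1 to Clec4a3 was -1.63 ± 0.24 (SD) in P9-CTR and -1.58 ± 0.27 in P9-ELS mice, and -3.77 ± 0.28 in CTR-PBS and -3.76 ± 0.61 in ELS-PBS mice. The lowest P9 mouse was at -2.08 and the highest PBS-injected mouse at -2.97, so the ages did not overlap in this ratio. As a ratio of levels, Clec4a1 was at 0.323 of Clec4a3 in P9-CTR and at 0.0733 in CTR-PBS mice. The ratio of Clec4a2 to Clec4a3 moved less, from 0.881 in P9-CTR to 0.807 in CTR-PBS and 0.621 in CTR-LPS mice, and from 0.953 to 0.696 and 0.652 in ELS mice. The CTR-PBS value of 0.807 was raised by mouse 1 of nest 1, which had few genes detected. Its log2 ratio was 0.72, against a group mean of -0.31 ± 0.50 (SD), so the step with age in CTR mice is understated.

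**Figure D4:**
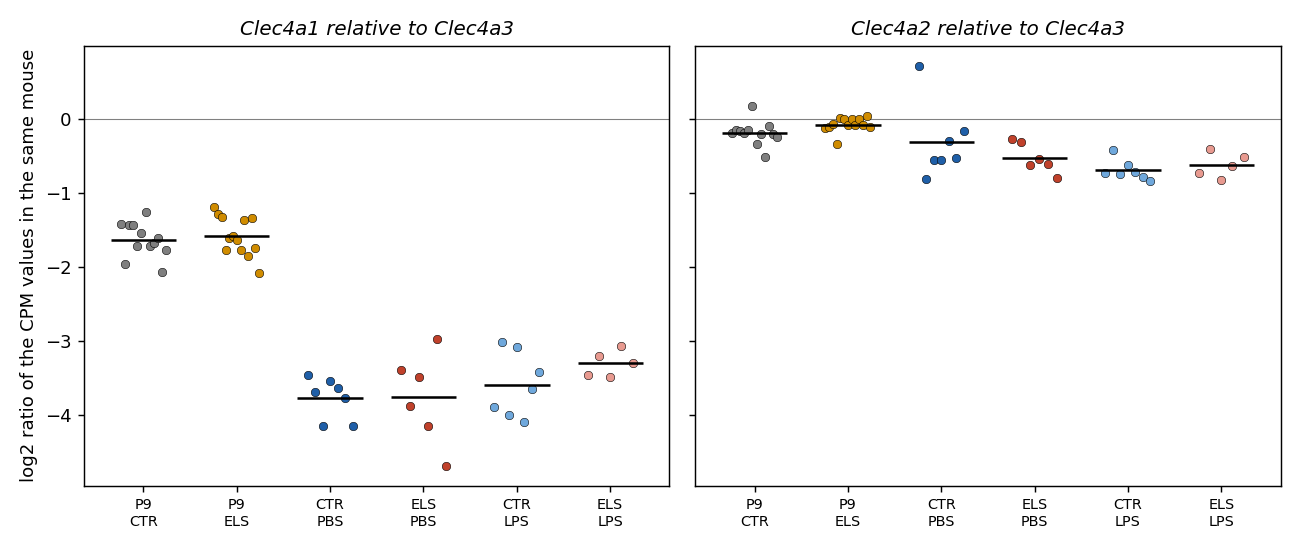
Log2 ratio of CPM within each mouse (vertical axes) for Clec4a1 relative to Clec4a3 and for Clec4a2 relative to Clec4a3 in the 6 groups; each point is a mouse and the bar is the group mean. For Clec4a1 the P9 mice lie between -2.08 and -1.18 and the P200 mice between -4.69 and -2.97, while for Clec4a2 all mice lie between -0.83 and 0.18 except mouse 1 of nest 1 in CTR-PBS at 0.72.

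Clec2d fell with age from a level that varied widely at P9. P9-CTR mice had a minimum of 0.558, a median of 4.80 and a maximum of 14.2 CPM, and P9-ELS mice 0, 1.27 and 8.5 CPM (0.207 to 8.5 CPM without mice 2 and 3 of nest 19). Both ranges overlapped those of the PBS groups given above. The log2 fold change was -3.19 (SE 0.78, adjusted p = 0.000727) in CTR and -2.86 (SE 0.83, adjusted p = 0.00414) in ELS mice. After LPS the adult level did not differ from the P9 level beyond the spread, with a log2 difference of -0.01 (95% interval -1.32 to 1.3) in CTR and 0.93 (-0.48 to 2.33) in ELS mice. In order of the group means, Clec2d thus rose from ELS-PBS and CTR-PBS to P9-ELS, ELS-LPS, CTR-LPS and P9-CTR, and of these neighbouring steps only that from CTR-PBS to P9-ELS passed the test (adjusted p = 0.0344).

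At P9 the level of Clec2d differed between nests. In P9-CTR mice it ranged from 3.91 to 9.75 CPM in nest 15, from 5.69 to 11.3 CPM in nest 17 and from 11.6 to 14.2 CPM in nest 58. It ranged from 0.558 to 1.21 CPM in nest 51 and from 1.37 to 2.1 CPM in nest 52. The 3 former nests did not overlap the other two. In P9-ELS mice it ranged from 0.207 to 1.56 CPM in nest 53 and from 0.804 to 1.41 CPM in nest 55, while nests 9 and 19 each held mice above these, with ranges from 0.679 to 8.5 CPM and from 0 to 7.62 CPM. Shared rearing, litter and handling cannot be told apart within a nest. Both mice of nest 58 also had the lowest summed microglial markers of all mice, 40700 and 35700 CPM. The part of this in their Clec2d level was not tested.

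**Figure D5:**
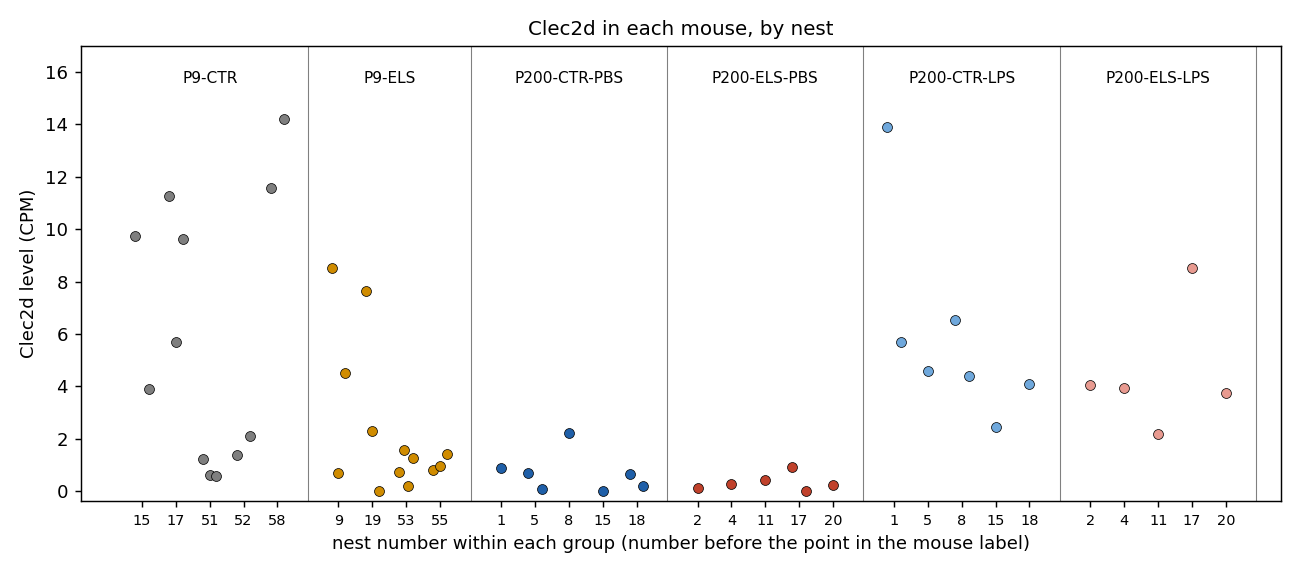
Clec2d level in CPM (vertical axis, linear) in each mouse, arranged by nest within the 6 groups (horizontal axis); each point is a mouse. In P9-CTR, nests 15, 17 and 58 lie above 3.9 CPM and nests 51 and 52 at or below 2.1 CPM, and no adult PBS mouse exceeds 2.2 CPM.

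Clec4n was counted in all 12 P9-CTR mice, at 0.156 to 1.86 CPM (median 0.738), and in 10 of 13 P9-ELS mice, at up to 3.29 CPM (median 0.807), the highest being mouse 2 of nest 19. The 2 CTR-PBS mice with counts were at 0.35 and 0.355 CPM. The log2 fold change from P9 to P200 was -2.85 (SE 1.13, adjusted p = 0.0364) in CTR mice and -1.06 (SE 1.05, adjusted p = 0.442) in ELS mice, for a gene that entered the test only through P9 mice. The CTR call was lost with no filter on low counts (adjusted p = 0.0537), without the 3 mice with the fewest genes (adjusted p = 0.0521) and in 5 of the 7 fits that left out a CTR-PBS mouse (up to 0.0697). With DESeq2 it held (adjusted p = 0.0154).

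Clec5a moved the other way with age. P9-CTR mice had 140.6 to 179 CPM and CTR-PBS mice 222 to 329.6 CPM, without overlap, a log2 fold change of 0.69 (SE 0.19, adjusted p = 0.00238) that stayed below the fold threshold. In ELS mice it was 0.23 (SE 0.20, adjusted p = 0.375). The P9-ELS group held mouse 2 of nest 19 at 632.8 CPM and mouse 3 of nest 19 at 81.4 CPM; without both its mean was 168 ± 21.2 CPM in place of 197 ± 134.5 CPM, and the log2 fold change was 0.46 (SE 0.10, adjusted p = 0.000175). Against P9, CTR mice after LPS were 2.04-fold higher (log2 fold change 1.03, SE 0.19, adjusted p = 1.16e-05), at the fold threshold. It fell below that threshold with voom and nest as a random effect (0.99) and without mouse 2 of nest 1 in CTR-LPS (0.96). Apart from Clec4e and Clec4n, Clec5a was the 1 of 5 members called higher in that comparison and Clec4a1 the 1 called lower, where 10.9% of all genes were called higher and 17.9% lower. In ELS mice Clec5a was 0.69 higher on the log2 scale (SE 0.21, adjusted p = 0.00576), and of these 5 members 0 were called higher and 1, Clec4a1, lower, against 10.1% and 17% of all genes. Clec4e was at 0 in all P9 mice; its call against P9 was lost with DESeq2 in CTR mice (adjusted p = 0.0704) and held in ELS mice (adjusted p = 0.0393).

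The levels of border-associated macrophage markers moved with age in the same mice. The sum of these 8 markers was 484 to 933 CPM at P9 and 2.68 to 11.12 CPM at P200, with all 8 counted in the P9 and the PBS groups. Most of it was Mrc1, the mannose receptor, which is itself a C-type lectin, at 461 to 910 CPM at P9. The part of these cells in the age differences of Clec4a1, Clec2d and Clec4n was not tested.

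The third question was whether ELS itself changed the receptors. None of the 7 members was called between ELS and CTR mice at P9, after PBS or after LPS, and neither interaction called any (edgeR). Clec4e, with 0 counts at P9 and 1 count after PBS, could not be called at P9, after PBS or for the interaction with age. Among all genes 0% were called at P9, 0.156% after PBS and 0% after LPS, and 0% and 0.0299% had an interaction of ELS with LPS and with age. At an unadjusted p below 0.05 there were 2 members at P9, Clec2d and Clec4a2, 1 after PBS, Clec4a2, and 0 after LPS, among 914, 1622 and 798 genes. DESeq2 and the other fits tried also called 0 members.

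The widest difference with ELS at P9 was that of Clec2d, with a median of 1.27 CPM in P9-ELS against 4.80 CPM in P9-CTR mice and overlapping ranges. The log2 fold change was -1.35 (SE 0.56, p = 0.0194, adjusted p = 0.897, edgeR). With the counts of each nest summed as 1 sample it was -1.35 (SE 0.74). Clec4a2 was 0.27 higher on the log2 scale in P9-ELS mice (SE 0.11, p = 0.0205, adjusted p = 0.897, edgeR) and, after PBS, 0.36 lower in ELS than in CTR mice (SE 0.16, p = 0.0246, adjusted p = 0.395). The interaction of age and ELS for Clec4a2 was -0.63 (SE 0.19, p = 0.00191, adjusted p = 0.267). The P9-ELS group without both of these nest 19 mice had a Clec4a2 mean of 94.4 ± 9.77 CPM in place of 101 ± 35.2 CPM. For Clec4e after LPS, the log2 difference between ELS and CTR mice was 1.47 (SE 1.29, 95% interval -1.22 to 4.15, adjusted p = 1), so neither an equal nor a several-fold higher level in ELS mice could be told from these counts.

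The adaptor genes Fcer1g and Tyrobp were abundant and were called in no comparison. Fcer1g had group medians of 1050 to 1610 CPM and Tyrobp of 879 to 1180 CPM. After LPS both adaptors were higher in ELS mice by less than the fold threshold, Fcer1g by 0.67 (SE 0.19, adjusted p = 0.0126) and Tyrobp by 0.54 (SE 0.15, adjusted p = 0.00845) on the log2 scale. In CTR mice these values were 0.15 (SE 0.17, adjusted p = 0.636) and -0.07 (SE 0.13, adjusted p = 0.806), and the interactions did not pass the test (adjusted p = 0.841 and 0.398). Syk had group medians of 69.6 to 112 CPM and Card9 of 4.85 to 8.81 CPM, and neither was called in any comparison.

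Of the 14 signalling genes listed, all tested, 1 was called higher and 0 lower after LPS in CTR mice and 0 in ELS mice, against 6.02% higher and 3.6% lower of all genes in CTR mice and 4.69% and 3.17% in ELS mice. The former was Malt1, the protease of the CARD9 complex, with a log2 fold change of 1.14 (SE 0.41, adjusted p = 0.0472) in CTR and 0.82 (SE 0.45, adjusted p = 0.261) in ELS mice. Its partner Bcl10 was higher by 0.78 (SE 0.12, adjusted p = 7.95e-07) and 0.69 (SE 0.13, adjusted p = 7.91e-05), below the fold threshold. With age, 1 of the 14 was called lower in each condition, against 18.5% and 17.5% of all genes, the phosphatase gene Ptpn11, at -1.09 (SE 0.22, adjusted p = 5.05e-05) in CTR and -1.02 (SE 0.23, adjusted p = 0.00024) in ELS mice. The median over the 14 was 0.17 and 0.19 after LPS and 0.06 and 0.23 with age in CTR and ELS mice, against the medians over all genes given above.

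Of 9 cytokine genes on the CARD9 route, 6 were tested. Apart from Il12b, Cxcl1 and Cxcl2, which passed the filter only through LPS mice, 2 of 3 were called higher after LPS in both conditions, where 6.02% of all genes were called higher in CTR and 4.69% in ELS mice. Tnf rose from a median of 2.56 to 225 CPM in CTR mice and from 3.59 to 277 CPM in ELS mice, and Il1b from 1.51 to 392 CPM and from 1.27 to 474 CPM. Every LPS mouse was above every PBS mouse for both genes. Il6 had medians of 18.8 CPM after PBS and 41.8 CPM after LPS in CTR mice and of 18.23 and 47.2 CPM in ELS mice, with log2 fold changes of 1.29 (SE 0.58, adjusted p = 0.133) and 1.28 (SE 0.65, adjusted p = 0.21). After LPS, Il12b had medians of 51.07 CPM in CTR and 78.4 CPM in ELS mice, Cxcl2 of 1.6 and 2.21 CPM and Cxcl1 of 0.292 and 0.516 CPM, and all 3 genes had medians of 0 after PBS. Klrb1b, the gene of NKR-P1B, was counted in 9 mice at no more than 0.939 CPM.

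Among 26 other C-type lectin receptor genes, 11 were tested and 0 were called after LPS in either condition. Clec7a, which encodes the beta-glucan receptor Dectin-1, had medians of 16.5 and 15.5 CPM at P9 in CTR and ELS mice, 16.6 and 9.44 CPM after PBS in CTR and ELS mice, and 12.3 and 15 CPM after LPS. After PBS it was 0.86 lower on the log2 scale in ELS than in CTR mice (SE 0.27, adjusted p = 0.157), and its change after LPS was -0.66 (SE 0.26, adjusted p = 0.0757) in CTR and 0.54 (SE 0.29, adjusted p = 0.238) in ELS mice. The interaction of LPS and ELS was 1.2 (SE 0.39, p = 0.00301, adjusted p = 0.398, edgeR), which did not pass the test. With age, 5 of the 11 passed the filter only through P9 mice, Clec10a and Mgl2 among them. Of the other 6, 1 was called lower in CTR mice, Mrc1, and 2 in ELS mice, Mrc1 and Clec2i, against 18.5% and 17.5% of all genes. Mrc1 fell from a median of 700 to 5.96 CPM in CTR and from 729 to 2.37 CPM in ELS mice.

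The genes whose log2 CPM was most like that of a member were found by Pearson correlation over mice, which is a description without a test since all mice share the groups and libraries. For Clec5a these were Cd86, Ms4a6d and Polr1h (r = 0.951, 0.93 and 0.917 over 50 mice), and for Cd86, a costimulatory ligand of T cells, r was 0.938 without the 3 mice with the fewest genes. Within the 25 P200 mice they were Ms4a6d, Eef1e1 and Arf6 (r = 0.896, 0.875 and 0.869).

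Clec4a1 was most like Cdkn3, Stmn1 and Hmgb2 (r = 0.936, 0.929 and 0.926), genes expressed in dividing cells. Within the 25 P9 mice these values were 0.225, 0.22 and 0.15, so that they largely followed the difference between ages. Within the P200 mice Clec4a1 was most like Cdkn3, Il18 and Gm45449 (r = 0.652, 0.635 and 0.617). Clec2d was most like Prrc2c, Hivep2 and Thoc2 over all mice (r = 0.805, 0.745 and 0.738) and, within the 25 P200 mice, most like the interferon-inducible GTPase gene Irgm1 (r = 0.898), Rnf19b (0.894) and Dst (0.894). Within the P9 mice, r of Clec2d with Irgm1 was -0.031.

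Clec4a3 was most like Rida, Tmco1 and Leprot over all mice (r = 0.789, 0.777 and 0.774), and these values were 0.629, 0.673 and 0.636 without the 3 mice with the fewest genes. Clec4a2 was most like Arl1, Glod4 and Psma4 (r = 0.82, 0.811 and 0.803, and 0.671, 0.634 and 0.68 without those mice). Within the P200 mice, Clec4a3 was most like Tmem41a, Cd79b and Nagk (r = 0.807, 0.78 and 0.751) and Clec4a2 most like Uqcc3, 0610009B22Rik and Rbm43 (r = 0.91, 0.891 and 0.878). Clec4n, counted in 33 mice, was most like Reep3, Erap1 and Kpnb1 (r = 0.708, 0.669 and 0.649) over all mice and Max, Vat1 and Ano6 (r = 0.658, 0.656 and 0.635) within the P200 mice. For Clec4e, Clec4d and Clec12a, with counts in 8, 3 and 13 mice, no such genes are given. Among the members, Clec4a3, Clec4a2 and Clec5a had r of 0.85 to 0.89 with each other within the P9 mice. These values rested on mice 2 and 3 of nest 19, the extremes of all 3 genes. Without both, r was 0.61 for Clec4a3 with Clec4a2, 0.22 for Clec4a3 with Clec5a and 0.28 for Clec4a2 with Clec5a.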

How the data were processed

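Microglia were sorted by flow cytometry from the hippocampus of each mouse, and poly-A RNA was sequenced from 50 libraries. The authors demultiplexed with bcl2fastq 2.20, trimmed with cutadapt 2.10, aligned to GRCm39 with STAR and counted uniquely mapped reads in exons per gene with HTSeq 0.11.0; the deposited values are raw counts. The annotation release and the strand setting are not given in the sources used here.

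Groups were taken from the labels. Counts were fitted with edgeR 4.0.16 (R 4.3.3) as 6 group means in 1 quasi-likelihood model with TMM normalization. A gene was kept if more than 2 mice reached 1 CPM, which left 16696 of 53700. P-values were adjusted by Benjamini-Hochberg over all genes tested, and calls needed adjusted p below 0.05 and an absolute log2 fold change above 1, interactions adjusted p alone. SE is the log2 fold change divided by the root of F. CPM values use TMM-scaled totals, and log2 CPM has a prior count of 2. A floor of 3 counts stands for a count of 0, and intervals are at 95%. Whether mice of a group came from separate litters is given by the nest number only, so p-values measure the spread between mice. Library totals of 5152838 to 42231258 counts set the precision, and 1 count is below 1 CPM in each library. In the shallowest, mouse 3 of nest 19 in P9-ELS, 1 count is as large as some levels given for Clec4e, Clec4n and Clec12a. A count of 0 in that library therefore says little about these genes.

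The members, the gene lists and the tests were chosen with earlier results of these data known. All 9 members are named, with the 3 most correlated genes of mean log2 CPM of at least 1 for each member except Clec4e, Clec4d and Clec12a, which had counts in few mice, the adaptors and kinases listed, and list genes that were called. Positions and promoters came from GRCm39 with GENCODE M39. The fits were tested on simulated data in which only genes of higher mean level than Clec4e, Clec4n and Clec2d were changed. The simulation thus does not cover genes counted as rarely as these. Alternatives were DESeq2 1.42.0, limma 3.58.1 voom with nest as a random effect, a likelihood-ratio test, other size factors and filters, the groups compared alone, nest as a block, nest sums, a log2 threshold of 0.1 and leaving out mice; 3 were chosen after seeing the data.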

Additional observations from a re-analysis of the deposited data

Results flagged for a closer look

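In groups of 4 to 10 mice, 9 of 32 combinations of member and group held a mouse whose gap to the nearest of the others exceeded Dixon's critical value at 95%. This value assumes a normal spread, which CPM of genes mostly at 0 do not have, so the count cannot be set against a share given by chance. In 3 of the 9 all other mice of the group were at 0. These 3 were Clec4e in mouse 1 of nest 4 in ELS-PBS (0.0356 CPM), Clec12a in mouse 2 of nest 15 in CTR-LPS (0.045 CPM) and Clec12a in the ELS-LPS mouse of nest 20 (0.0722 CPM), each resting on 1 count.

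Mouse 1 of nest 1 in CTR-PBS, with the fewest genes detected among the adult mice, was far above its group for Clec5a (330 CPM, the others 222 to 268 CPM) and for Clec4a2 (140 CPM, the others 78.1 to 104 CPM). The ELS-LPS mouse of nest 20 stood apart for Clec4d (0.939 CPM) and mouse 2 of nest 20 in ELS-PBS for Clec12a (0.815 CPM). For Clec2d, mouse 1 of nest 8 in CTR-PBS (2.2 CPM, the others 0 to 0.865 CPM) and mouse 2 of nest 1 in CTR-LPS (13.9 CPM, the others 2.43 to 6.53 CPM) stood apart. The part of library quality in these values was not tested.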

How the results depend on the processing

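Of the calls on members, those of Clec2d after LPS held in every alternative fit and with each P200 mouse of the comparison left out in turn, with adjusted p of at most 0.0139 in CTR mice. The number of members called after LPS in CTR mice fell from 2 to 1, through Clec4e, with DESeq2, with the groups compared alone, with nest as a replicate block, with the newer quasi-likelihood weighting and with voom and nest as a random effect. In ELS mice it fell from 2 to 1 with DESeq2 and with nest as a replicate block. P200 after LPS against P9 in ELS mice gave 4 members at a log2 threshold of 0.1 in place of 2. With mice left out in turn, the number called ranged from 2 to 2 after LPS in both conditions and with age in ELS mice, from 2 to 3 with age in CTR mice and for P200 after LPS against P9 in both, and from 0 to 0 for ELS against CTR and the interactions. No member changed direction past the threshold. The cause of these changes was not tested. These counts include Clec4e and Clec4n. The fits that left out mice kept the genes that passed the filter over all 50 mice, which for Clec4e rested on 3 LPS mice. Clec4e lost its call in CTR mice at adjusted p = 0.113 under the newer weighting and 0.06 under voom, and its call in CTR-LPS against P9 mice with DESeq2 (adjusted p = 0.0704). Clec5a lost its call in that comparison under voom (0.99 on the log2 scale).

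Mice of PBS and LPS groups with the same nest number did not deviate together (correlation of deviations from the group means -0.041 to 0.084 over 10 nests), so the number alone pairs them. With nest as a replicate block, Clec2d had log2 fold changes of 3.16 (adjusted p = 0.00509) in CTR and 3.98 (adjusted p = 0.00208) in ELS mice, and Clec4e had 5.39 (adjusted p = 0.0845) and 5.78 (adjusted p = 0.081). Over all genes, calls between ELS-PBS and CTR-PBS mice numbered 26 and ranged from 0 to 191 over the alternatives, those with an interaction of age and ELS numbered 5 and ranged from 0 to 29, and those with an interaction of LPS and ELS numbered 0 and reached 66 with the likelihood-ratio test. Depth limits Clec4e, Clec4d, Clec12a and Clec4n, for which differences of a few counts per library were not detectable.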
